A study of Mus musculus with 3 samples.

Results

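The mitochondrial respiratory chain was followed through the aortic cells of mice that carry 1 of 3 human forms of APOE, the gene of apolipoprotein E. The members were all 106 gene symbols of the count tables, out of 32285 genes in all, that name a nuclear subunit of complexes I to IV or of the ATP synthase (prefixes Nduf, Sdh, Uqcr, Cox4 to Cox8 and Atp5) or 1 of the 13 proteins encoded in mitochondrial DNA (mt-), with pseudogene names dropped. They comprised 85 nuclear subunits (36 of complex I, 4 of complex II, 8 of complex III, 20 of complex IV and 17 of the ATP synthase), 8 complex I assembly factors and 13 mitochondrial genes. Cox8c had no UMI in any cell and 5 complex IV genes, Cox8c included, had fewer than 1000 UMIs in all. In these male mice on a C57BL/6J background the mouse Apoe gene was replaced at its own locus by human APOE2, APOE3 or APOE4. From 12 weeks of age all 3 groups were fed, for 16 weeks, a Western diet (0.2% cholesterol, with fat giving 42% of its calories). Aortas from the arch to the iliac bifurcation were dissociated with enzymes. The cell suspensions were pooled by genotype (7 mice for APOE4, 6 for APOE2 and 5 for APOE3) and run as 1 droplet library per genotype. The mouse of origin cannot be read from the barcodes, so each genotype is 1 sample, no difference between genotypes was tested, and a difference between genotypes cannot be told apart from a difference between pools or library preparations.

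Oxidative phosphorylation passes electrons from NADH (through complex I) and from succinate (through complex II, which is also an enzyme of the tricarboxylic acid cycle) to ubiquinone, on to complex III, cytochrome c and complex IV, and the ATP synthase uses the proton gradient that complexes I, III and IV build. Complexes I, III and IV and the ATP synthase are mosaics of proteins from both genomes, while complex II is wholly nuclear. The nuclear genes are transcribed singly, whereas the mitochondrial genes are cut from long polycistronic transcripts, which is why levels in the same organelle can differ through RNA processing and stability as well as through transcription. Vascular smooth muscle uses both respiration and glycolysis for its energy.

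The deposited counts held 28506 barcodes, of which 26757 cells with at least 200 genes and under 20% mitochondrial UMIs were kept (11772 from APOE2, 6737 from APOE3 and 8248 from APOE4). A UMI marks 1 captured transcript, and the kept cells held between 124926887 and 168310501 UMIs per library. Barcodes with 20% or more mitochondrial UMIs were 2.86% of those in APOE2, 6.72% in APOE3 and 6.26% in APOE4. Barcodes with under 200 genes numbered 237, 408 and 518 in APOE2, APOE3 and APOE4. Some barcodes failed both limits, so these shares are not what the mitochondrial limit removed by itself. Both limits together kept 95.8% of the barcodes in APOE2, 93.0% in APOE3 and 91.9% in APOE4. Between 23 and 30 barcodes were shared by a pair of libraries and none by all 3. Cells were clustered without any respiratory chain or mitochondrial gene, which gave 24 clusters (C0 to C23, numbered from the largest), and clusters were named from marker lists. Smooth muscle-like cells were 8 clusters with 17341 cells, in which 12 of 12 markers were higher than in the other cells, by 1.59 to 2.34 times. The same markers served to name these clusters, so this is no separate check of the name. The other cells include unnamed clusters that kept 11 or 12 of the markers. Fibroblast-like cells (2807), macrophage-like cells (727), endothelial-like cells (232), B lymphocyte-like cells (327), T lymphocyte-like cells (250) and erythroid-like cells (102) were the other named classes, and 9 clusters with 18.6% of the cells remained unnamed. The macrophage-like cluster also held neutrophil genes.

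Each level is a sum of UMIs over a class, scaled to 1000000 UMIs of that class in the same library (CPM), and differences are given as log2 ratios with 95% intervals that cover counting error only, not the spread between mice. A member was past the fold limit when its log2 ratio to APOE3 was at least 0.5 in size with at least 50 UMIs in both libraries together. APOE2 and APOE4 were set against the same APOE3 library. Apoe, the replaced gene, stood at 494 CPM in APOE2 and 641 CPM in APOE4 against 1027 CPM in APOE3 in macrophage-like cells. In fibroblast-like cells it was 250 CPM in APOE2 and 342 CPM in APOE4 against 526 CPM in APOE3. It was nearly level in smooth muscle-like cells, at 169 CPM in APOE2 and 160 CPM in APOE4 against 163 CPM in APOE3. Over all cells it was 191 CPM in APOE2 and 181 CPM in APOE4 against 200 CPM in APOE3. The reads were aligned to the mouse genome, so these levels do not check which human gene is present. Nor are they a measure of how much human APOE RNA the cells held. Where 3 values stand together without names they are for APOE2, APOE3 and APOE4. Levels of different genes are not compared, since counts of UMIs are not a scale per length.

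In smooth muscle-like cells the summed level of the 85 nuclear subunits was nearly equal in the 3 libraries, while the summed level of the 13 mitochondrial genes was lowest in APOE3, higher in APOE2 and highest in APOE4. The nuclear sum was 25514 CPM in APOE2 and 25930.3 in APOE4 against 25619 in APOE3, with log2 ratios to APOE3 of -0.01 (95% interval -0.01 to -0.0035) for APOE2 and 0.02 (95% interval 0.01 to 0.02) for APOE4. The mitochondrial sum was 22463 CPM in APOE2 and 28269 in APOE4 against 16211 in APOE3. Its log2 ratio to APOE3 was 0.47 (95% interval 0.47 to 0.47) for APOE2, or 1.39-fold, and 0.80 (95% interval 0.80 to 0.81) for APOE4, or 1.74-fold. The 2 genomes thus stood in a different proportion in each library, with 0.880 in APOE2, 0.633 in APOE3 and 1.09 in APOE4 mitochondrial UMIs for each nuclear subunit UMI. The shift appeared in each of the 4 complexes with mitochondrial subunits, by 0.76 for complex I, 0.64 for complex III, 0.88 for complex IV and 0.88 for the ATP synthase in APOE4, and by 0.47, 0.33, 0.51 and 0.55 in APOE2 (log2 ratios to APOE3).

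The order APOE3, APOE2, APOE4 of the mitochondrial sum was the same in 8 of the 8 smooth muscle clusters, with log2 ratios of 0.44 to 0.95 for APOE4 and 0.07 to 0.62 for APOE2 against APOE3. Over the same clusters the nuclear sum lay within -0.03 to 0.06 and -0.11 to 0.03. Over all 24 clusters, named or not, the mitochondrial sum was higher in APOE4 than in APOE3 in 23 and higher in APOE2 than in APOE3 in 21. The exception for APOE4 was C13, an unnamed cluster led by endothelial and neutrophil genes, with 6488 CPM in APOE2 and 12357 in APOE4 against 22668 in APOE3. C13 kept 12 of 12 smooth muscle markers, and was left out of the smooth muscle clusters because 3 endothelial markers were raised in it. The clusters share a library, so they are not separate tests of a genotype.

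Fibroblast genes inside the smooth muscle-like class also differed between libraries. Of the 12 fibroblast markers, 11 had enough UMIs. Of these, 7 were higher past the limit in APOE2 than in APOE3 and 0 lower (against 10.8% and 4.37% of all genes). In APOE4, 1 was higher and 2 lower (against 9.54% and 5.1%). The list summed to 2096 CPM in APOE2 and 1675 CPM in APOE4 against 1949 CPM in APOE3. In fibroblast-like cells it summed to 29345 CPM in APOE2 and 35365 CPM in APOE4 against 39048 CPM in APOE3. Dcn, a matrix proteoglycan, was 345 CPM in APOE2 and 24.2 CPM in APOE4 against 35.4 CPM in APOE3 and the related Lum 223 CPM in APOE2 and 5.00 CPM in APOE4 against 7.01 CPM in APOE3, while Pi16, another of the markers, was 3.15 CPM in APOE2 and 2.40 CPM in APOE4 against 1.30 CPM in APOE3. Other markers were lower in APOE2 than in APOE3, without passing the limit. Col1a1 was 293 CPM in APOE2 and 337 CPM in APOE4 against 384 CPM in APOE3. Col1a2 was 653 CPM in APOE2 and 808 CPM in APOE4 against 811 CPM in APOE3, and Gsn 538 and 487 CPM against 699 CPM. In the smooth muscle cluster C6 the list summed to 6744 CPM in APOE2 and 2227 CPM in APOE4 against 2474 CPM in APOE3. Without C6, an alternative added after seeing the data, the list summed to 1491 CPM in APOE2 and 1625 CPM in APOE4 against 1900 CPM in APOE3. The higher APOE2 sum was thus not found outside C6, although 6 of 11 markers were still higher there in APOE2 and 1 lower. In APOE4, 2 were higher and 2 lower. The log2 ratios to APOE3 of the mitochondrial sum without C6 were 0.49 for APOE2 and 0.80 for APOE4.

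The other cell classes had less nuclear respiratory chain RNA per 1000000 UMIs than smooth muscle-like cells, in all 3 libraries. In fibroblast-like cells the nuclear sum was 18233 CPM in APOE2 and 17423 in APOE4 against 18204 in APOE3 and the mitochondrial sum 15135 CPM in APOE2 and 19798 in APOE4 against 13370.0 in APOE3, with log2 ratios of the latter to APOE3 of 0.18 (95% interval 0.17 to 0.19) for APOE2 and 0.57 (95% interval 0.56 to 0.58) for APOE4. In macrophage-like cells the nuclear sum was 15724 CPM in APOE2 and 14806 in APOE4 against 14799 in APOE3 and the mitochondrial sum 17863 CPM in APOE2 and 21018 in APOE4 against 16404 in APOE3 (log2 ratios of the latter 0.12 (95% interval 0.10 to 0.15) and 0.36 (95% interval 0.33 to 0.38)). The nuclear sum in these 2 classes moved by no more than 0.09 (log2). It moved more in classes with few APOE3 cells. Its log2 ratios to APOE3 for APOE2 and APOE4 were 0.20 and 0.29 in endothelial-like cells and 0.47 and 0.42 in T lymphocyte-like cells. In B lymphocyte-like cells they were -0.17 and -0.21. Endothelial-like cells, only 32 of them in APOE3, had 21398 CPM in APOE2 and 33642 in APOE4 against 23785 in APOE3 for the mitochondrial sum, and here APOE2 lay below APOE3 by -0.15. In B and T lymphocyte-like cells, with 10 and 21 APOE3 cells, the mitochondrial sums were 17417 CPM in APOE2 and 30475 in APOE4 against 10651 in APOE3, and 19906 CPM in APOE2 and 24391 in APOE4 against 14832 in APOE3. Erythroid-like cells, 5 of them in APOE3, had the lowest nuclear sums of the named classes, 3296 CPM in APOE2 and 1392 in APOE4 against 3049.6 in APOE3. Globin genes took most UMIs of this class, with Hbb-bs at 469234, Hba-a1 at 155938, Hba-a2 at 115692 and Hbb-bt at 106816 CPM over the 3 libraries together. That lowers the CPM of every other gene there.

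**Figure D1:**
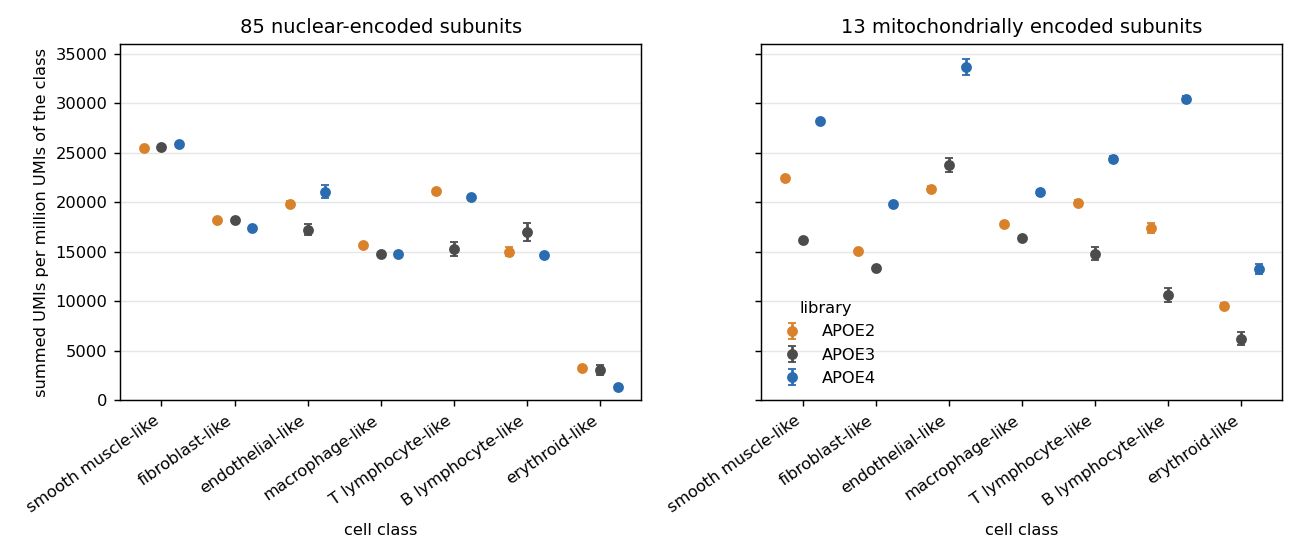
Summed CPM of the 85 nuclear subunits and of the 13 mitochondrial genes in each marker-defined class and library, with exact Poisson 95% intervals for counting error. In smooth muscle-like cells the nuclear points lie together between 25514 and 25930.3 CPM, and the mitochondrial points are spread from 16211 in APOE3 to 28269 in APOE4.

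Of the 101 members with enough UMIs in smooth muscle-like cells for APOE4 against APOE3, 12 were higher past the fold limit and none was lower, against 9.54% of 14817 genes higher and 5.1% lower. As a share of all members this was near the share of all genes, but all 12 were mitochondrial genes, and mt-Nd3, the remaining mitochondrial gene, did not reach the limit. mt-Atp8, a small ATP synthase subunit whose reading frame overlaps that of mt-Atp6, had the widest ratio. It stood at 104 CPM in APOE2 and 169.7 in APOE4 against 63.1 in APOE3, a log2 ratio of 1.43 (95% interval 1.38 to 1.47) for APOE4 and 0.72 (95% interval 0.67 to 0.76) for APOE2. mt-Nd2, a proton-pumping membrane subunit of complex I, was at 1457 CPM in APOE2 and 1865 in APOE4 against 920.4 in APOE3 (1.02 (95% interval 1.01 to 1.03) for APOE4). mt-Co3, a core subunit of complex IV, was at 3292 CPM in APOE2 and 4542 in APOE4 against 2247 in APOE3 (1.01 (95% interval 1.01 to 1.02)). The catalytic subunits of complex IV differed by less, with mt-Co1 at 2505 CPM in APOE2 and 3333 in APOE4 against 1924 in APOE3 and mt-Co2 at 3079.8 CPM in APOE2 and 3597 in APOE4 against 2075 in APOE3, a log2 ratio of 0.79 for mt-Co1 and 0.79 for mt-Co2 in APOE4. mt-Cytb, the only mitochondrial gene of complex III, was 3922 CPM in APOE2 and 4868 in APOE4 against 3126 in APOE3 (0.64), and mt-Atp6, which forms part of the proton channel, 3401 CPM in APOE2 and 4230.5 in APOE4 against 2332 in APOE3 (0.86). Among the other complex I genes, the log2 ratios of APOE4 to APOE3 were 0.82 for mt-Nd1, 0.79 for mt-Nd4l, 0.57 for mt-Nd4, 0.80 for mt-Nd5 and 0.80 for mt-Nd6. In 11 of the 13 genes APOE4 was above APOE3 in 8 of 8 smooth muscle clusters, and in the other two, mt-Nd3 and mt-Nd6, in 7 of 8.

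For APOE2 against APOE3, 9 of 102 members were higher past the limit (against 10.8% of 15099 genes) and 1 was lower (against 4.37%). With the median gene set to 0, the counts were 9 higher and 3 lower, and in cells with 10000 to 20000 UMIs they were 5 higher and 4 lower. With the reported settings the shares of the members were near or under those of all genes. For these alternatives no share of all genes is given. The 9 were mt-Nd2, mt-Co2, mt-Atp8, mt-Atp6, mt-Co3, mt-Nd4l, mt-Nd5 and mt-Nd6 and the nuclear gene Ndufa4l2, which is near 0 in these cells. mt-Nd5, at 402 CPM in APOE2 and 405 in APOE4 against 233 in APOE3, had a log2 ratio of 0.79 (95% interval 0.76 to 0.81) in APOE2 and nearly the same in APOE4. mt-Nd6, whose gene lies on the other strand of mitochondrial DNA, was 22.6 CPM in APOE2 and 16.0 in APOE4 against 9.20 in APOE3 (log2 ratio 1.29 (95% interval 1.18 to 1.40)), a low level throughout. mt-Nd6 was also raised in C20, an unnamed cluster in which 149 of 155 cells came from APOE2, but that cluster held only 192 of the 3843 mt-Nd6 UMIs of that library.

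mt-Nd3 (ENSMUSG00000064360, chromosome M, 9459 to 9806 in GRCm38) differed from the rest in APOE2. It is a short complex I subunit with 345 coding bases, and stood at 154 CPM in APOE2 and 356 in APOE4 against 279 in APOE3 in smooth muscle-like cells. The log2 ratio to APOE3 was -0.86 (95% interval -0.89 to -0.83) in APOE2 and 0.35 (95% interval 0.33 to 0.38) in APOE4. In APOE2 it lay below APOE3 in 8 of 8 smooth muscle clusters, by log2 ratios between -1.17 and -0.67, while the other 12 mitochondrial genes were above APOE3 in the sum over these clusters. The same direction held outside smooth muscle, where mt-Nd3 was 116 CPM in APOE2 and 268 in APOE4 against 233 in APOE3 in fibroblast-like cells (-1.01 (95% interval -1.11 to -0.92) for APOE2), 118 CPM in APOE2 and 296 in APOE4 against 279 in APOE3 in macrophage-like cells (-1.24 (95% interval -1.44 to -1.04)) and 164 CPM in APOE2 and 460.4 in APOE4 against 387 in APOE3 in endothelial-like cells (-1.24 (95% interval -1.62 to -0.84)). APOE2 was thus the lowest library for mt-Nd3 in all 4 of these classes. mt-Atp8 was highest in APOE4 in the same classes, by log2 ratios to APOE3 of 1.12, 0.79 and 1.85.

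**Figure D2:**
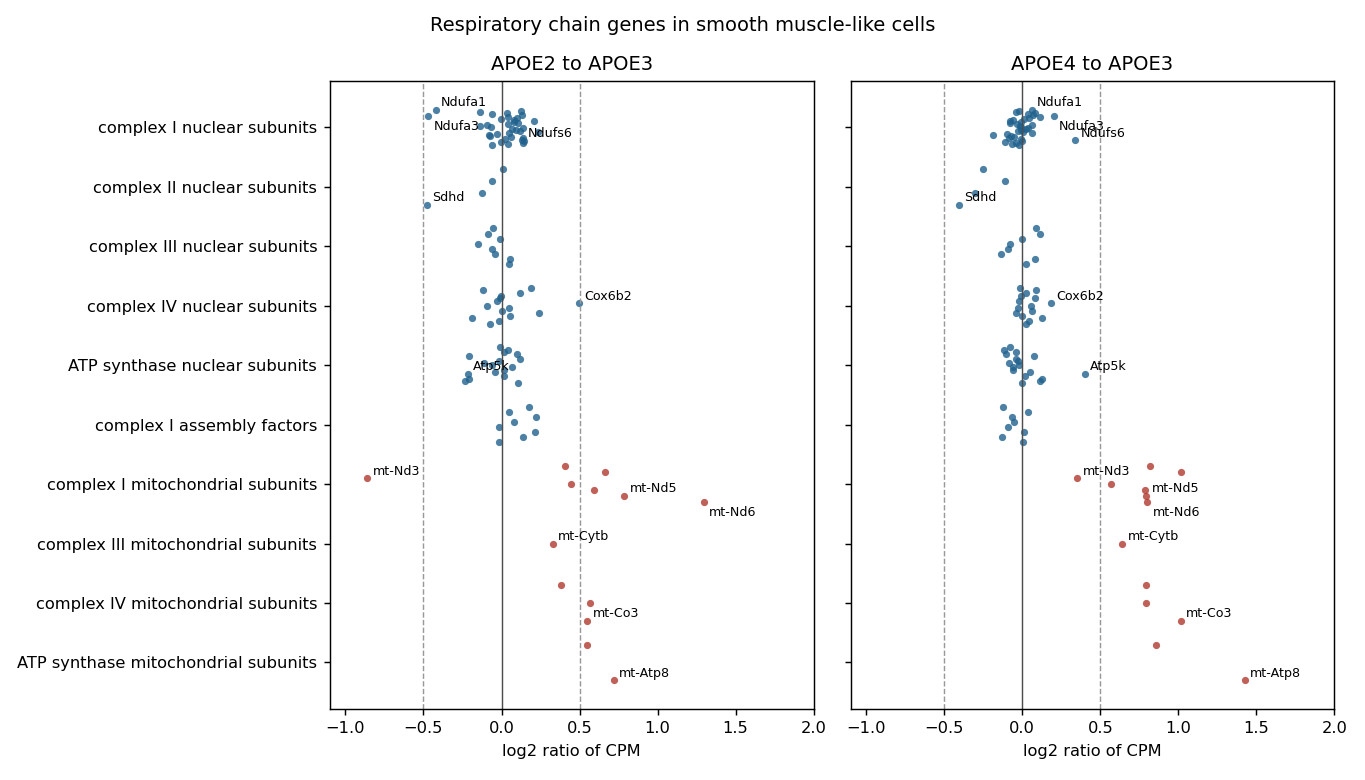
Log2 ratio to APOE3 of the members with enough UMIs in smooth muscle-like cells, by complex and genome of origin, for APOE2 and APOE4. Each point is 1 gene (blue for nuclear, red for mitochondrial genes) and the dashed lines mark the fold limit. Nuclear genes sit around 0, the mitochondrial genes lie to the right for both genotypes and mt-Nd3 lies to the left for APOE2. Ndufa4l2, with few UMIs in this class, is left out.

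**Figure D3:**
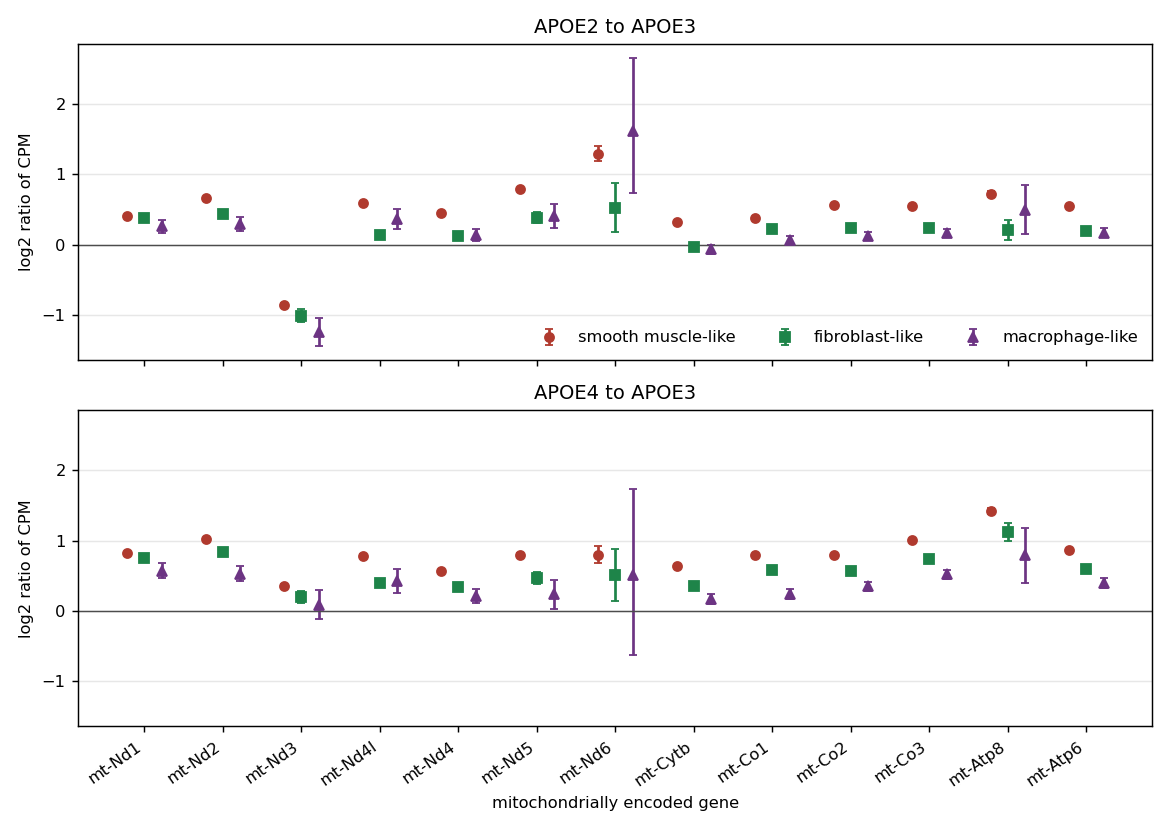
Log2 ratio to APOE3 of each of the 13 mitochondrial genes in smooth muscle-like, fibroblast-like and macrophage-like cells, for APOE2 and APOE4, with 95% counting intervals. mt-Nd3 is below 0 in all 3 classes for APOE2, at -0.86 in smooth muscle-like and -1.01 in fibroblast-like cells, and mt-Atp8 is the gene farthest above 0 for APOE4 in smooth muscle-like cells.

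The difference in the mitochondrial sum was spread over cells, and part of it was a larger share of cells with very little mitochondrial RNA in APOE3. The share of a cell's UMIs in the 13 mitochondrial genes had a median over smooth muscle-like cells of 2.26% in APOE2 and 2.89% in APOE4 against 1.62% in APOE3, with quartiles of 1.39 and 3.22%, 0.563 and 2.56%, and 1.70 and 4.01% for APOE2, APOE3 and APOE4. The quartiles overlapped between libraries. For the 85 nuclear subunits the medians were 2.56% in APOE2 and 2.60% in APOE4 against 2.58% in APOE3. Cells with under 1% of UMIs in the mitochondrial genes made up 18.03% in APOE2 and 15.5% in APOE4 against 35.1% in APOE3 (1330, 1521 and 874 cells). The same share was 23.9% in APOE2 and 19.2% in APOE4 against 37.6% in APOE3 in fibroblast-like cells and 30.5% in APOE2 and 15.3% in APOE4 against 36.0% in APOE3 in macrophage-like cells. It was highest in APOE3 in 8 of 8 smooth muscle clusters, for example 29.7% in APOE2 and 21.0% in APOE4 against 45.2% in APOE3 in C0 and 2.01% in APOE2 and 3.27% in APOE4 against 14.0% in APOE3 in C4.

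In smooth muscle-like cells these low cells were not poor in nuclear respiratory chain RNA. Their median share of UMIs in the nuclear subunits was 2.84% in APOE2 and 2.82% in APOE4 against 2.70% in APOE3, beside 2.51% in APOE2 and 2.55% in APOE4 against 2.52% in APOE3 in the other smooth muscle-like cells, and their median UMI count was 15960 in APOE2 and 15778 in APOE4 against 21026 in APOE3 beside 14020 in APOE2 and 15685 in APOE4 against 20001 in APOE3. Among APOE4 macrophage-like cells the nuclear share was 0.957% in the 21 low cells beside 1.11% in the others. Depth differed between the libraries, with a median of 14319.5 UMIs per smooth muscle-like cell in APOE2, 20234 in APOE3 and 15712 in APOE4. At 10000 to 20000 UMIs the median mitochondrial share was 2.21% in APOE2 and 2.97% in APOE4 against 1.72% in APOE3, and at 20000 to 50000 UMIs 2.07% in APOE2 and 2.59% in APOE4 against 1.49% in APOE3. At 5000 to 10000 UMIs, where APOE3 had 205 cells, the order was different, with 2.66% in APOE2 and 3.67% in APOE4 against 3.97% in APOE3. The part of dissociation, cell damage and depth in the mitochondrial difference was not tested. Immediate early and dissociation genes, a list of 15 such as Fos, Junb and Hspa1a, summed to 13098 CPM in APOE2 and 22679 in APOE4 against 16173 in APOE3 in the same cells, with 9 of 15 higher past the limit in APOE4 (against 9.54% of all genes) and 2 of 15 lower in APOE2 (against 4.37%).

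**Figure D4:**
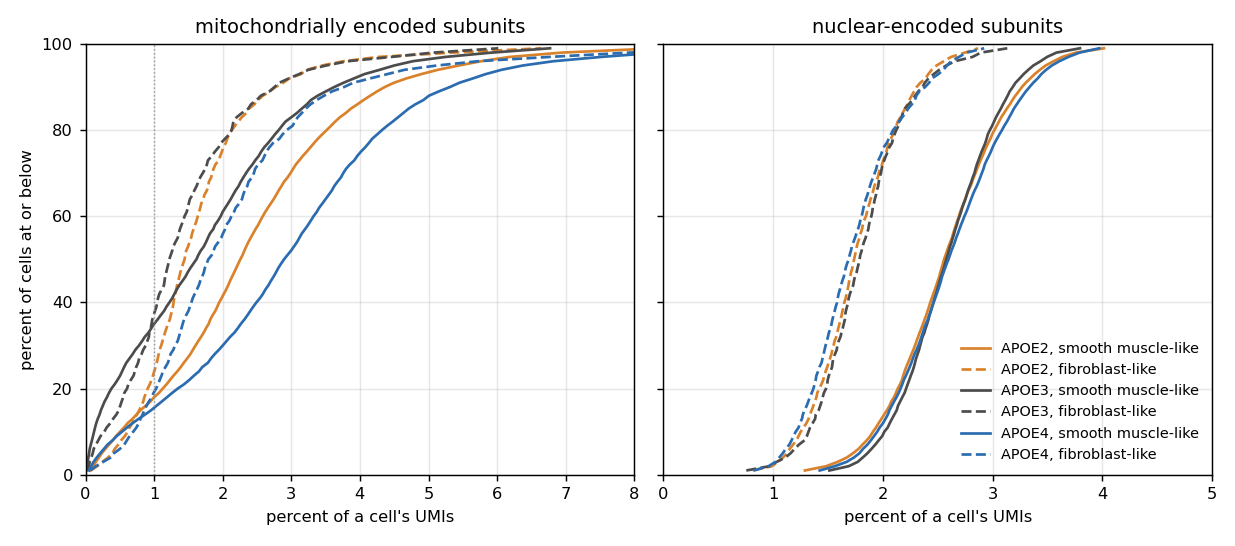
Cumulative share of smooth muscle-like (solid) and fibroblast-like (dashed) cells against the percent of a cell's UMIs in the 13 mitochondrial genes and in the 85 nuclear subunits, 1 line per library, drawn from the 1st to the 99th percentile. The mitochondrial curves separate, with the smooth muscle-like APOE3 curve to the left of the others of its class and 35.1% of its smooth muscle-like cells under 1%, and the nuclear curves of a class lie close together.

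Among the nuclear members the differences were mostly small, and beside Ndufa4l2 none passed the fold limit in smooth muscle-like cells. Cox6b2 came closest, at 5.77 CPM in APOE2 and 4.64 in APOE4 against 4.09 in APOE3 (0.50 (95% interval 0.32 to 0.68) for APOE2). This gene is higher in fibroblast-like cells, whose markers differed between libraries here. In C6 its log2 ratio was -0.55, and without C6 it was 0.72, past the limit. Of the 80 nuclear subunits with at least 50 UMIs in each library, 15 were higher and 16 lower in APOE4 than in APOE3 in 8 of 8 smooth muscle clusters (against 8.05% and 18.1% of all genes past that minimum), and 8 were higher and 25 lower in APOE2 (against 8.45% and 9.98%). Genes near the minimum can change side between clusters through counting error, and most subunits had far more UMIs. The shares of all genes are thus not like for like with those of the subunits. Over all genes tested the median log2 ratio was -0.08 in APOE4 and 0.04 in APOE2, so nuclear members closer to 0 than this change side when the median gene is set to 0. Complex I, the largest of the complexes, summed to 8788 CPM in APOE2 and 8758 in APOE4 against 8673 in APOE3. Its core subunits bind NADH and carry the flavin or iron-sulfur clusters. Ndufv1, which binds NADH, was 123, 112 and 109 CPM in APOE2, APOE3 and APOE4, while Ndufs1, the largest subunit, was 42.9, 45.3 and 39.8 CPM (log2 ratio -0.19 (95% interval -0.25 to -0.13) for APOE4). The accessory subunits Ndufa1 and Ndufa3 were low in APOE2. Ndufa3 stood at 153 CPM in APOE2 and 244 in APOE4 against 212 in APOE3 (-0.47 (95% interval -0.50 to -0.44) for APOE2 and 0.20 (95% interval 0.17 to 0.23) for APOE4), and Ndufa1 at 180.0 CPM in APOE2 and 252 in APOE4 against 241 in APOE3 (-0.42 (95% interval -0.45 to -0.40) and 0.06 (95% interval 0.04 to 0.09)). Both were below APOE3 in APOE2 and above it in APOE4 in 8 of 8 clusters. Ndufb9, at 498, 423 and 423 CPM, was higher in APOE2 in 8 of 8 clusters (0.24 (95% interval 0.22 to 0.25)).

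By pathway analysis the study reports high expression of oxidative phosphorylation genes, mitochondrial and nuclear, in smooth muscle clusters enriched in APOE2 mice. Among these it names 6 complex I genes, a choice made on these samples. Both are comparisons of clusters, which are not the clusters used here, and the pathway analysis was not repeated. Levels by cluster are given below for Ndufa6 only. The ratios here compare genotypes over the whole smooth muscle-like class, which is another contrast, and they were small as well. Ndufs6, a zinc-binding accessory subunit, was 186 CPM in APOE2 and 214 in APOE4 against 169 in APOE3, with a log2 ratio of 0.34 (95% interval 0.31 to 0.37) for APOE4 that was above 0 in 8 of 8 clusters. Ndufa9 was 80.0 CPM in APOE2 and 65.7 in APOE4 against 69.4 in APOE3 and higher in APOE2 by 0.20 (95% interval 0.16 to 0.25). Ndufa6 (373, 349 and 359.9 CPM), Ndufb7 (304, 286 and 283 CPM) and Ndufs3 (145, 138 and 134 CPM) stayed within a log2 ratio of 0.10 of APOE3. In C2 and C11, of the 8 smooth muscle clusters those with the largest APOE2 shares of cells (1844 of 2711 and 512 of 787), Ndufa6 was at 463 and 435 CPM in APOE2, 380.1 and 408 in APOE3 and 366 and 382 in APOE4, against 394, 384 and 402 in C0.

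Complex II was the complex whose nuclear sum differed most, at 393 CPM in APOE2 and 361 in APOE4 against 426 in APOE3, a log2 ratio of -0.12 (95% interval -0.13 to -0.10) for APOE2 and -0.24 (95% interval -0.26 to -0.22) for APOE4. Its 4 genes were all lower in APOE4 than in APOE3 in 8 of 8 smooth muscle clusters. Sdhd (ENSMUSG00000000171, chromosome 9, 50596357 to 50603812), a membrane anchor that binds ubiquinone, was 44.2 CPM in APOE2 and 46.5 in APOE4 against 61.6 in APOE3, below APOE3 by a log2 ratio of -0.48 (95% interval -0.53 to -0.42) in APOE2 and -0.41 (95% interval -0.46 to -0.35) in APOE4. Fibroblast-like cells had 40.8, 55.8 and 43.0 CPM of Sdhd in APOE2, APOE3 and APOE4 (-0.45 and -0.38). Sdhc, the other anchor, was 114 CPM in APOE2 and 101 in APOE4 against 125 in APOE3 (-0.30 (95% interval -0.34 to -0.26) for APOE4), and Sdha, the flavoprotein that oxidises succinate, 102 CPM in APOE2 and 84.9 in APOE4 against 101 in APOE3 (-0.25 (95% interval -0.29 to -0.21)). For Sdhb, the iron-sulfur subunit, the levels were 133, 139 and 128 CPM. Sdha was level in APOE2 and APOE3 (0.01 (95% interval -0.03 to 0.05)), so the 4 subunits did not move as a block in APOE2.

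Complex III summed to 2518 CPM in APOE2 and 2620.2 in APOE4 against 2550.1 in APOE3. Its small subunits Uqcr10 (357, 371 and 395 CPM) and Uqcr11 (385, 409 and 442 CPM) were highest in APOE4, and its larger proteins, the core protein Uqcrc1 (130.1, 144 and 137 CPM) and the Rieske iron-sulfur protein Uqcrfs1 (109, 112 and 102 CPM), were highest in APOE3. Complex IV summed to 7008 CPM in APOE2 and 7197 in APOE4 against 7009 in APOE3. Cox4i1, the main form of the subunit through which ATP regulates the enzyme, was 1176 CPM in APOE2 and 1022 in APOE4 against 1030.5 in APOE3, higher in APOE2 by 0.19 (95% interval 0.18 to 0.20) and in 8 of 8 clusters. Cox7a2l was 333 CPM in APOE2 and 275 in APOE4 against 282 in APOE3 (0.24 (95% interval 0.22 to 0.26), also 8 of 8). Cox7c, a short subunit, had the opposite order, 816 CPM in APOE2 and 1017 in APOE4 against 931 in APOE3, and was lowest in APOE2 and highest in APOE4 in 8 of 8 clusters when each was set against APOE3. Cox5a, a core nuclear subunit, was 257, 237 and 242 CPM.

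The ATP synthase summed to 6807 CPM in APOE2 and 6994 in APOE4 against 6962 in APOE3. Its catalytic subunits Atp5a1 (367, 370.1 and 349.7 CPM) and Atp5b (531, 515 and 476 CPM) were lower in APOE4 than in APOE3 in 8 of 8 clusters, by log2 ratios of -0.08 (95% interval -0.10 to -0.06) and -0.11 (95% interval -0.13 to -0.10). The median log2 ratio over all genes tested was itself -0.08 in APOE4, and 18.1% of genes were lower in 8 of 8 clusters. Other subunits were chosen after their values were seen. Atp5k, a subunit of the membrane sector that helps the enzyme form dimers, was 282 CPM in APOE2 and 433 in APOE4 against 328 in APOE3, with 0.40 (95% interval 0.38 to 0.42) for APOE4 and -0.22 (95% interval -0.24 to -0.20) for APOE2. Atp5e, Atp5md and Atp5mpl shared this order, at 615, 709.7 and 747 CPM, 301, 347 and 379 CPM and 204, 239.6 and 259 CPM, and were lower in APOE2 and higher in APOE4 than in APOE3 in 8 of 8 clusters. Not every short subunit had this order, and Atp5j, with 324 coding bases, was 556 CPM in APOE2 and 528 in APOE4 against 551 in APOE3 and lower in APOE4 in 8 of 8 clusters. The 3 genes that encode the same c-ring protein, Atp5g1, Atp5g2 and Atp5g3, stood at 329, 332 and 326 CPM, 372, 403 and 379.6 CPM and 221, 231 and 227 CPM. Of the 8 complex I assembly factors none passed the limit, and the log2 ratios lay between -0.02 and 0.22 for APOE2 and between -0.13 and 0.04 for APOE4.

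Within smooth muscle most nuclear subunits were highest in C0, in each of the 3 libraries. C0 was the highest of the 8 clusters for 60, 63 and 71 of 80 subunits in APOE2, APOE3 and APOE4, and for 54 in all 3. The lowest cluster was less uniform, most often C6 in APOE2 (30 of 80) and C1 in APOE3 and APOE4 (42 and 40 of 80). No share of all genes stands beside these counts of highest and lowest clusters. They do not show by themselves that the subunits differ from other genes. Between C0 and C1, 79 of 80 nuclear subunits were higher in C0 in all 3 libraries, against 32.9% of 12014 genes, with median log2 differences of 0.35, 0.35 and 0.39. Between C0 and C6 it was 78 of 80 (against 28.2%). Between C4 and C1, 43 of 79 were higher in C4 (against 45.7% of 11664 genes) and 7 lower (against 20.3%). The median log2 differences there were 0.02, 0.06 and 0.04. The shares of genes for pairs of clusters include genes near the minimum of 50 UMIs in both clusters together. Counting error can change their side, so these shares are not like for like with those of the subunits. The immediate early and dissociation list summed to 27155, 32360.5 and 33579 CPM in C1, against 8152, 8744 and 16195 in C0. Its part in the differences between clusters was not tested. The range was modest, since the highest cluster was a median of 1.38, 1.31 and 1.33 times the lowest in APOE2, APOE3 and APOE4. The mitochondrial genes were not highest in C0. In C4, a cluster led by Lars2 and Gm15564, 13 of 13 mitochondrial genes were higher than in C0 in all 3 libraries while 76 of 80 nuclear subunits were lower (against 51.2% and 29.9% of 11423 genes). C4 had the highest mitochondrial sum of the 8 clusters, 36448 CPM in APOE2 and 43276 in APOE4 against 25613 in APOE3, and C0 the highest nuclear sum, 28835 CPM in APOE2 and 30230.2 in APOE4 against 29036 in APOE3. Without C4, an alternative added after seeing the data, the log2 ratios to APOE3 of the mitochondrial sum were 0.48 for APOE2 and 0.82 for APOE4.

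The promoters of the nuclear subunits, from 250 bases before the RefSeq start, were searched on both strands for the palindromic site of NRF1 (GCGCATGCGC), a transcription factor of many respiratory chain genes. Of the 68 nuclear subunits with a RefSeq promoter, 4 held it, or 5.88%, against 0.877% of 27025 genes. They are shown because a larger share of these promoters than of all promoters held the site, and because Atp5k had the highest ratio of APOE4 to APOE3 of the nuclear subunits with enough UMIs, as 30 bases of GRCm38.p6, 5′ to 3′ on the strand of the gene, with the site in capitals.
Atp5k: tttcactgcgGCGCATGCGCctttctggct
Cox6a1: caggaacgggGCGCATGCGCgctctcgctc
Atp5g2: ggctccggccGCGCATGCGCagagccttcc
Ndufa11: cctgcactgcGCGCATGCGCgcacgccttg
They lie at chr5:108434430-108434459 (minus strand), chr5:115349101-115349130 (minus strand), chr15:102671070-102671099 (minus strand) and chr17:56717692-56717721 (plus strand). The Atp5g2 stretch and 19 bases of the Atp5k stretch fall in an annotated exon of another transcript start, as does 1 base of the Cox6a1 stretch. The levels of these genes in smooth muscle-like cells were 282, 328 and 433 CPM for Atp5k, 346, 348 and 368 CPM for Cox6a1, 372, 403 and 379.6 CPM for Atp5g2 and 385, 423 and 412 CPM for Ndufa11, so genes with the site did not share an order of libraries. ACGTG, the core of the hypoxia response element, was in 13 of 68 promoters (19.1%, against 18.5%), and CCGGAAGTG, the core of a GABPA site, in 1 (1.47%, against 1.6%).

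Several subunits exist as a ubiquitous form and a second form with narrower expression. Of these second forms, Ndufa4l2 and Cox6b2 were higher in fibroblast-like than in smooth muscle-like cells in all 3 libraries. They were not confined to the fibroblast-like class. The unnamed cluster C9, with raised fibroblast markers, had 70.1, 92.6 and 113 CPM of Ndufa4l2 and 22.6, 29.8 and 19.7 CPM of Cox6b2. Ndufa4l2 (ENSMUSG00000040280, chromosome 10, 127514967 to 127517154), a relative of the complex IV subunit Ndufa4 that is known as a hypoxia target, was 115 CPM in APOE2 and 114 in APOE4 against 135 in APOE3 in fibroblast-like cells (1657, 1140 and 1241 UMIs). Its share of the UMIs of Ndufa4 and Ndufa4l2 there, not scaled for length, was 23.4% in APOE2 and 27.2% in APOE4 against 27.6% in APOE3. In smooth muscle-like cells it had 166, 11 and 28 UMIs in all, a share of the pair of 0.238% in APOE2 and 0.0444% in APOE4 against 0.0188% in APOE3. A single APOE2 cell held 47 of the 166 UMIs, so the wide APOE2 ratio in smooth muscle rests on few cells. Thinned to 1000 UMIs per cell, the share of fibroblast-like cells with a UMI was 9.54% in APOE2 and 11.3% in APOE4 against 13.6% in APOE3 (46.0% in APOE2 and 53.2% in APOE4 against 56.9% in APOE3 without thinning), and in smooth muscle-like cells, the background here, 0.109% in APOE2 and 0.0356% in APOE4 against 0.0231% in APOE3. Its level in fibroblast-like cells was lower than in APOE3 by log2 ratios of -0.23 (95% interval -0.34 to -0.12) in APOE2 and -0.24 (95% interval -0.36 to -0.13) in APOE4.

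The genes whose level most resembled Ndufa4l2 over 67 sums of cluster and library were Tspan11, the alcohol dehydrogenase Adh1, the globin Cygb, Itm2a and the matrix proteoglycan Dcn, with Spearman correlations of log2(CPM + 1) of 0.783, 0.759, 0.758, 0.752 and 0.751 among 13008 genes. The sums share libraries and cells of a type, so this is a description. Cox6b2, the form of Cox6b known from testis, was 17.4 CPM in APOE2 and 27.4 in APOE4 against 43.6 in APOE3 in fibroblast-like cells, where it lay below APOE3 by -1.33 (95% interval -1.57 to -1.09) in APOE2 and -0.67 (95% interval -0.90 to -0.45) in APOE4. Its share of the UMIs of Cox6b1 and Cox6b2 was 4.75% in APOE2 and 7.64% in APOE4 against 11.2% in APOE3, beside 1.41% in APOE2 and 1.13% in APOE4 against 0.982% in APOE3 in smooth muscle-like cells.

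Cox4i2, the form of Cox4 known from hypoxia and from lung, was a small part of the Cox4 UMIs, with 1.55% in APOE2 and 2.04% in APOE4 against 1.91% in APOE3 in smooth muscle-like cells, and 1.73% in APOE2 and 2.60% in APOE4 against 2.31% in APOE3 in fibroblast-like cells. Within smooth muscle it was highest in C14 in APOE3 and APOE4, at 49.7 and 52.6 CPM, and in C6 and C14 in APOE2, at 58.3 and 50.3 CPM, against 12.0, 18.8 and 20.7 CPM in C0 (APOE2, APOE3 and APOE4). The forms known from heart and skeletal muscle had few UMIs in smooth muscle-like cells. Cox7a1 was at 1.79, 1.73 and 1.70 CPM in smooth muscle-like cells, and its share of the UMIs of Cox7a1 and Cox7a2 was 0.345% in APOE2 and 0.314% in APOE4 against 0.334% in APOE3. Cox6a2 had 3, 1 and 2 UMIs there and Cox8b 11, 1 and 2. Of the 296 Cox6a2 UMIs of the APOE2 library, 284 lay in unnamed clusters, 174 of them in C7 and 107 in C15, while APOE3 and APOE4 had 8 and 9 in all. Cox8b had 89, 36 and 13 UMIs in all cells, of which 55, 7 and 3 lay in unnamed clusters. Cox7b2, another second form, had 10, 5 and 8 UMIs in smooth muscle-like cells. The ubiquitous partners Cox6a1 (346, 348 and 368 CPM), Cox7a2 (518, 518 and 540.0 CPM), Cox7b (346, 334 and 333 CPM) and Cox8a (845, 854 and 879.9 CPM) carried almost all UMIs of their pairs in this class.

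Set against smooth muscle-like cells of the same library, 32 of 81 nuclear subunits were lower past the limit in fibroblast-like cells in all 3 libraries (against 13.4% of 13690 genes), and Cox6b2 and Ndufa4l2 were higher (against 26.1%). In macrophage-like cells 57 of 80 were lower (against 25.9%), 33 of them among the 36 of complex I. This class also held neutrophil genes such as S100a8, and the part of neutrophils in its levels was not tested. Cox7a1 was the only subunit higher in macrophage-like cells (against 22% of genes), on 28, 4 and 8 UMIs. Cox7a1 was also counted as higher in T lymphocyte-like cells (against 25.3%), on 2, 2 and 3 UMIs. In APOE2 it passed the limit there only through the 0.5 UMIs added to each count. For the others the counts lower past the limit were 12 of 80 in endothelial-like (7.74%) and 21 of 80 in T lymphocyte-like cells (16.6%). They were 36 of 80 in B lymphocyte-like (16.9%) and 78 of 80 in erythroid-like cells (45.4%). APOE3 held only 32, 21, 10 and 5 cells of these classes, in this order. The minimum of UMIs was met by a class and smooth muscle-like cells together, so genes with few or no UMIs in the class were counted. With 0.5 UMIs added to each count, a gene of low level could hardly be called lower in such small classes. The shares of all genes there are thus not like for like with those of the members. UMIs of Acta2, a smooth muscle actin, were also counted in fibroblast-like cells, at 1483 CPM in APOE2 and 2211 CPM in APOE4 against 2370.3 CPM in APOE3 beside 21999 CPM in APOE2 and 25679 CPM in APOE4 against 26926 CPM in APOE3 in smooth muscle-like cells, and the part of free RNA in the differences between classes was not tested.

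Between genotypes, fibroblast-like cells had 1 member of 101 higher past the limit in APOE2, mt-Nd6, and 4 lower, Ndufa3, Cox6b2, Ndufa1 and mt-Nd3 (against 5.7% and 8.42% of 12121 genes). Ndufa1 was 142 CPM in APOE2 and 227 in APOE4 against 219 in APOE3 (-0.62 (95% interval -0.71 to -0.53)) and Ndufa3 106 CPM in APOE2 and 164 in APOE4 against 161 in APOE3 (-0.60 (95% interval -0.70 to -0.49)), the same direction as in smooth muscle-like cells. In APOE4, 8 of 101 members were higher, all mitochondrial (mt-Nd1, mt-Nd2, mt-Co1, mt-Co2, mt-Atp8, mt-Atp6, mt-Co3 and mt-Nd6), and 2 lower, Cox6b2 and the assembly factor Ndufaf6 (against 6.69% and 7.38% of 11892). Ndufaf6 had 115 UMIs in APOE3 and 89 in APOE4 (-0.74 (95% interval -1.15 to -0.32)), and Ndufaf3, another assembly factor, was higher in APOE2 by 0.39 (95% interval 0.17 to 0.61).

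Macrophage-like cells had 2 members of 96 higher in APOE2, Sdhb and mt-Nd6, and 2 lower, Ndufa3 and mt-Nd3 (against 11.6% and 16.2% of 9147 genes). Sdhb was 113 CPM in APOE2 and 87.6 in APOE4 against 79.4 in APOE3 (0.52 (95% interval 0.20 to 0.84)), Cox5a 249.99 CPM in APOE2 and 230.0 in APOE4 against 179 in APOE3 (0.49 (95% interval 0.28 to 0.70)) and Ndufa3 98.2 CPM in APOE2 and 165 in APOE4 against 156 in APOE3 (-0.67 (95% interval -0.92 to -0.42)). In APOE4, 4 of 94 were higher, mt-Nd1, mt-Nd2, mt-Atp8 and mt-Co3, and none lower (against 11.1% and 12.4% of 6648). The members farthest below APOE3 there were the complex I subunits Ndufb10 (-0.40 (95% interval -0.69 to -0.11)) and Ndufa11 (-0.36 (95% interval -0.64 to -0.07) for APOE4 and -0.48 (95% interval -0.71 to -0.25) for APOE2) and the c-ring gene Atp5g2 (-0.31 (95% interval -0.51 to -0.11)). These shares lie under those of all genes.

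Endothelial-like cells had few UMIs in APOE3 (191000 in 32 cells), which makes their ratios wide. In APOE2, 11 of 94 members were higher and 4 lower (against 19% and 21.5% of 5130 genes), and in APOE4, 22 of 70 higher and none lower (against 14.9% and 16.8% of 1305). Ndufa8 was 153 CPM in APOE2 and 254 in APOE4 against 68.1 in APOE3 (1.17 (95% interval 0.37 to 2.10) and 1.90 (95% interval 0.99 to 2.91)), from 13 UMIs in APOE3, and Ndufv3 was 183 CPM in APOE2 and 159 in APOE4 against 99.5 in APOE3 (0.88 (95% interval 0.21 to 1.63)). Atp5g3 was higher in APOE4 by 0.90 (95% interval 0.18 to 1.65). For Ndufaf4 the log2 ratio in APOE2 was 1.17 (95% interval -0.46 to 3.50) and for Sdhd -0.52 (95% interval -1.42 to 0.51), both with 0 inside the interval. The members farthest below APOE3 in APOE4, Ndufb2 (-0.35), Ndufb11 (-0.32) and Atp5o (-0.25), had intervals that include 0.

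In APOE4 the small nuclear differences followed the length of the gene's coding sequence, a relation chosen after the values had been seen. Over the 88 nuclear members with enough UMIs in smooth muscle-like cells, the log2 ratio of APOE4 to APOE3 went down with coding length, with a Spearman correlation of -0.72, against 0.10 over 12909 other genes. Of the 21 members under 300 coding bases, 18 were above 0 (median 0.06), and of the 13 with at least 1000 bases, 13 were below 0 (median -0.08). In the other genes of these lengths, 37% were above 0 and 63.6% below 0. Atp5k (213 coding bases) and Ndufs6 (372) are at the upper end, and Sdha (1992) and Ndufs1 (2181) at the lower. In APOE2 against APOE3 the sign of the correlation was the opposite, 0.32 over 89 members, with Ndufa1 (210 bases) and Ndufa3 (300) low, but there was no steady order by length. The median ratios in APOE2 were -0.04 under 300 bases, 0.005 from 300 to 500, 0.10 from 500 to 1000 and -0.01 above, and Pearson's correlation was 0.0063. In fibroblast-like cells the correlations were -0.54 for APOE4 and 0.43 for APOE2, and in macrophage-like cells -0.24 and 0.32. Shorter members also had higher levels (-0.54 between length and level), and the genes share 1 library per genotype and are no replicates. Relative to the median of all genes (-0.08), the longest members did not stand below in APOE4 and the shortest stood above. Whether library preparation had a part in this order was not tested.

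**Figure D5:**
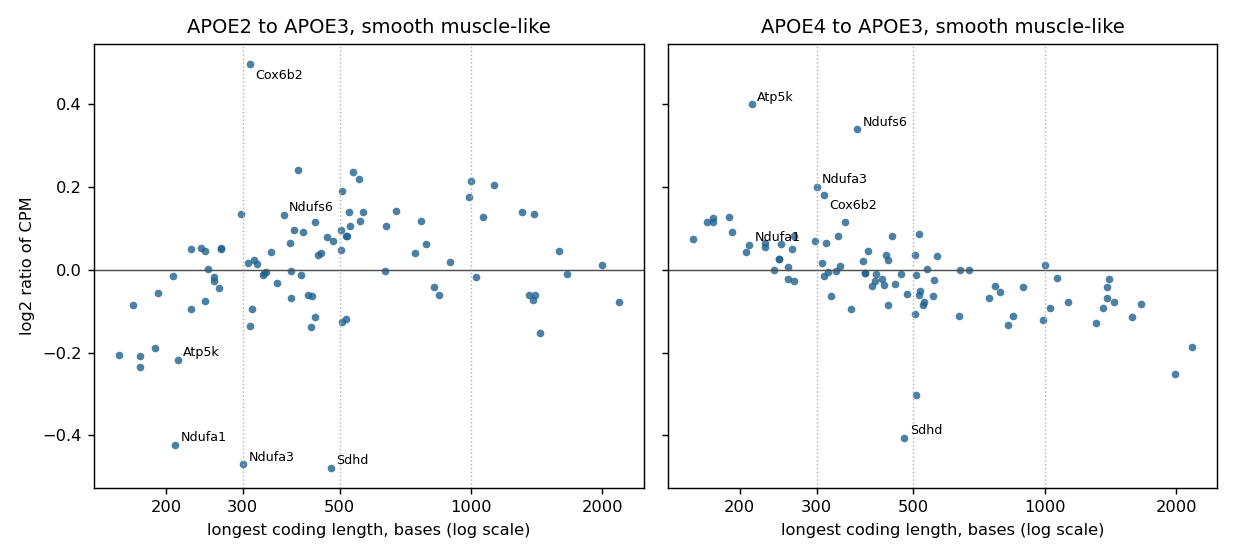
Log2 ratio of APOE4 to APOE3 and of APOE2 to APOE3 in smooth muscle-like cells against the coding length of each nuclear member (bases, log scale), with Ndufa4l2 left out of the plot. Each point is 1 gene. For APOE4 the points fall from above 0 at short lengths to below 0 at long ones, where 13 of 13 members of at least 1000 bases are below 0.

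Other genes of mitochondrial energy metabolism were described by lists, whose counts stand beside the shares of all genes past the limit in smooth muscle-like cells, 10.8% higher and 4.37% lower in APOE2 and 9.54% and 5.1% in APOE4. None of the 16 tricarboxylic acid cycle genes passed the limit in smooth muscle-like cells in either genotype (median log2 ratio -0.09 in APOE2 and -0.13 in APOE4, beside 0.04 and -0.08 over all genes tested). None of the 9 genes of electron carriers and of ADP/ATP and phosphate carriers did (-0.04 and -0.10), nor any of the 7 genes of mitochondrial oxidant defence such as Sod2 and Prdx3 (0.04 and -0.09). Of 19 genes that transcribe, replicate or maintain mitochondrial DNA, such as Tfam and Polrmt, only Polg2, a subunit of the mitochondrial DNA polymerase, passed it, higher in APOE4, and the list summed to 370.3 CPM in APOE2 and 393 in APOE4 against 380.0 in APOE3. Of 36 assembly factors outside the Nduf names, only Lyrm7, a chaperone of the Rieske protein, passed it, lower in APOE2. Of the 6 inhibitors, uncouplers and supercomplex factors, 5 had enough UMIs in APOE2 and 4 in APOE4, of which Ucp2 was higher in APOE2 and Mcub lower in APOE4. Cytosolic ribosomal protein genes, another abundant group, summed to 124497 CPM in APOE2 and 124159 in APOE4 against 114712 in APOE3.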

How the data were processed

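Single-cell RNA of mouse aortas was measured in 3 droplet libraries, 1 per APOE genotype, grouped by the genotype in the labels. Cell Ranger was run by the authors against mm10 (GRCm38) (7.0.1 in the header of the deposited counts) and deposited raw UMI counts per gene and barcode without normalization. Whether intronic reads were counted is not given in the sources used here, and nuclear copies of mitochondrial DNA and near-identical pseudogenes can share reads with members. The members and the other gene lists were chosen with earlier results of these data known.

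Cells with at least 200 genes and under 20% mitochondrial UMIs were kept, limits that the study's methods name without values. All members and other mitochondrial genes were removed, each library was normalized with sctransform 0.4.2, and the libraries were integrated by canonical correlation over 3000 features and 30 components and clustered by the Louvain method at resolution 0.8 (Seurat 5.3.0, R 4.3.3). A marker was raised in a cluster when found in 10% of its cells and 2 times higher than in the others, and a smooth muscle marker was kept when it reached 50% of its level over all cells. Clusters with at least 10 of 12 smooth muscle markers kept and fewer than 3 raised markers of another type were named smooth muscle-like, unless 90% or more of their cells came from 1 library, 3 markers of another type were among their 10 leading genes or their depth was under their libraries' median divided by 3. Another name needed at least 3 raised markers, 1 or more of them among the leading genes and no other type with more there, and fewer than 6 smooth muscle markers kept.

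UMIs were summed per class and library. CPM have exact Poisson intervals, ratios exact conditional binomial intervals and shares of cells Clopper-Pearson intervals, all at 95% and for counting error only. Ratios across all genes had 0.5 UMIs added. For shares of cells with a UMI, cells were thinned to 1000 UMIs. Scrublet (scanpy 1.11.5) called 0, 0 and 3 cells as doublets, which were kept. In 1 alternative the top 5% of its scores were removed. With 1 library per genotype no test was made. The ratios and intervals were tested on simulated counts before use. Gene positions are from GENCODE vM21.

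Named members were the 13 mitochondrial genes, subunits with a second form, the complex I genes the study names, core subunits, the 3 members with the largest ratios in each direction in classes with at least 30 cells per library, and the 5 genes most like Ndufa4l2, not all of which are reported here. Others named, such as Ndufb9, Cox7c, Uqcr10, Uqcr11, Atp5e, Atp5md and Atp5mpl, were chosen after their values were seen. Alternatives were other filters, resolution 0.4, classes set per cell, all clusters with smooth muscle markers, a fixed depth range, other scalings, the mean of cells, other fold limits, and, added after seeing the data, leaving out C1, C4 or C6. Python 3.11.15, numpy 2.4.6, scipy 1.17.1 and pandas 2.3.3 were used.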

Additional observations from a re-analysis of the deposited data

Results flagged for a closer look

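In some clusters the sums moved in the other direction than in smooth muscle-like cells. These differences were not tested, since each genotype is 1 library. The nuclear sum was higher in APOE2 than in APOE3 by log2 ratios of 0.20 in endothelial-like cells, 0.11 in C7, 0.14 in C13, 0.17 in C15 and 0.21 in C22, where smooth muscle-like cells had -0.01. C7, C15 and C22 were unnamed clusters with few UMIs per cell. C7 and C13 kept 12 of the 12 smooth muscle markers, and C15 and C22 kept 11. In APOE4 the nuclear sum of C17, an unnamed cluster with raised erythroid genes and 30 APOE4 cells, was below APOE3 by -0.21, where smooth muscle-like cells had 0.02. C17 also kept 12 of the smooth muscle markers.

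The mitochondrial sum was lower in APOE2 than in APOE3 by -0.15 in endothelial-like cells and by -1.80 in C13, against 0.47 in smooth muscle-like cells. In C13 it was also lower in APOE4, by -0.88, against 0.80. C13 held 214, 392 and 54 cells from APOE2, APOE3 and APOE4.

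Ndufb1-ps, left out because its symbol ends like a pseudogene, had 136680 UMIs in all. Its level in smooth muscle-like cells was 264 CPM in APOE2 and 447 CPM in APOE4 against 345 CPM in APOE3, with log2 ratios to APOE3 of -0.39 in APOE2 and 0.37 in APOE4, and 163 CPM in APOE2 and 255 CPM in APOE4 against 196 CPM in APOE3 in fibroblast-like cells. This is the order of libraries of the short subunits Ndufa3 and Atp5k.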

How the results depend on the processing

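In smooth muscle-like cells the mitochondrial sum was above APOE3 in both genotypes under every alternative tried, and the nuclear sum stayed within 0.10 of 0 (log2). Values that moved by more than their counting interval were as follows. The mitochondrial log2 ratio of APOE2 to APOE3, 0.47 as reported, was 0.47 with at least 500 genes and under 10% mitochondrial UMIs, 0.39 with no limit on mitochondrial UMIs, with classes set per cell, 0.49 with resolution 0.4, 0.37 with each cell classed by its own markers, 0.40 with cells with 10000 to 20000 UMIs, 0.33 with all clusters that keep smooth muscle markers, 0.40 with C1 left out, 0.48 with C4 left out, 0.49 with C6 left out, 0.48 with CPM without mitochondrial UMIs, 0.43 with the median gene set to 0 and 0.45 with the mean of each cell CPM. For APOE4 to APOE3, 0.80 as reported, it was 0.78 with at least 500 genes and under 10% mitochondrial UMIs, 0.75 with no limit on mitochondrial UMIs, with classes set per cell, 0.80 with resolution 0.4, 0.73 with each cell classed by its own markers, 0.77 with cells with 10000 to 20000 UMIs, 0.73 with all clusters that keep smooth muscle markers, 0.76 with C1 left out, 0.82 with C4 left out, 0.80 with C6 left out, 0.82 with CPM without mitochondrial UMIs, 0.89 with the median gene set to 0 and 0.76 with the mean of each cell CPM. The nuclear ratio of APOE2, -0.0059 as reported, was 0.010 with resolution 0.4, -0.0034 with each cell classed by its own markers, -0.044 with cells with 10000 to 20000 UMIs, 0.0010 with all clusters that keep smooth muscle markers, -0.032 with C1 left out, -0.0024 with C4 left out, 0.010 with C6 left out, 0.0033 with CPM without mitochondrial UMIs, -0.048 with the median gene set to 0 and -0.0086 with the mean of each cell CPM. That of APOE4, 0.017 as reported, was 0.0042 with no limit on mitochondrial UMIs, with classes set per cell, 0.0062 with each cell classed by its own markers, -0.032 with cells with 10000 to 20000 UMIs, 0.0081 with all clusters that keep smooth muscle markers, 0.029 with C1 left out, 0.035 with CPM without mitochondrial UMIs and 0.10 with the median gene set to 0. With a fold limit of 1 on the log2 scale, 2 members were past it in APOE2 and 3 in APOE4. At 10000 to 20000 UMIs, 5 members were higher and 4 lower in APOE2. No share of all genes is given for these counts, so they are not set against other genes. Ndufa4l2 in smooth muscle-like cells turned, from 1.26 for APOE4 to -0.011 with no limit on mitochondrial UMIs and -0.0081 with each cell classed by its own markers, and its cause was not tested. mt-Nd3 in APOE2 ranged over -0.95 to -0.82 and mt-Atp8 in APOE4 over 1.32 to 1.51. Of the values of single genes, 510 moved by less than their counting interval, 294 by more, and 2 were counted as reversed. More values than these 2 changed sign. For APOE4 in macrophage-like cells mt-Nd3, 0.09 as reported, ranged from -0.38 to 0.27. For APOE2 in smooth muscle-like cells Sdha, 0.01 as reported, ranged from -0.03 to 0.04. No paired analysis was possible because each genotype has 1 library. Leaving out a replicate was not possible for the same reason. The APOE3 endothelial-like and lymphocyte-like values rest on few cells, which limits their depth.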
